A study of Mus musculus with 16 samples.

Results

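The 5′ part of mouse 28S rRNA was examined by Ψ-seq, a sequencing method that maps pseudouridine, in activated CD4 T cells with and without the cap methyltransferase RNMT. The stretch was defined by position: it holds all 28S read-start positions from the 5′ end on except the last 3601 of 4731, which makes 16.4% of the 6878 positions in 4 rRNAs. It covers about domain I and the long expansion segment 7; these borders were not checked against a sequence here. Domain I is the first folded block of large-subunit rRNA and lies close to the paired 5.8S rRNA. Expansion segments are insertions that lengthen the rRNA of animals, and expansion segment 7 is a very long, GC-rich one that is exposed on the ribosome surface and is known for strong secondary structure. Pseudouridine is an isomer of uridine made in rRNA mainly by box H/ACA small nucleolar ribonucleoproteins. The carbodiimide CMC leaves a stable adduct on it, and reverse transcription halts 1 nucleotide before the adduct is copied, so the modified nucleotide is 1 before the read start. A stop found in mock-treated RNA as well is CMC-independent. The RNA was also fragmented before the linkers were added, so read starts include fragment ends.

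Both genotypes carried the floxed Rnmt allele, with loxP sites around exon 3, on a C57B6/J background. Control mice were Rnmt fl/fl CD4cre - and Rnmt cKO mice Rnmt fl/fl CD4cre +, so that the Cd4-cre transgene limited deletion to cells of the T lineage that had expressed Cd4. All 8 animals, 4 of each genotype, were female, and their CD4 T cells, taken from lymph nodes, were activated for 20 h on anti-CD3/CD28. RNA of each animal was divided into a CMC and a mock library, which gave 16 libraries. No mRNA was measured, so neither the loss of Rnmt nor the cell type could be checked. The age of the animals was not stated in the labels.

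The libraries held 1130058 to 2165668 read starts in all and 106360 to 224984 in the 5′ stretch. A median of 63.0 to 145 read starts fell on each position. In 3 mock libraries 1 position had no read start. Percent termination was the read starts at a position as a share of all read starts in the 65 nucleotides that end there. From position 65 on this window held at least 1414 read starts in every library. One library stood apart. Across the positions of the stretch, the log2 read starts of the Control 1 mock library had a median Pearson correlation of 0.902 with the other libraries of its group, against 0.941 to 0.979 for the other 15 libraries. The ratio of CMC to mock termination exceeded 2 at 7.74% of tested positions in Control 1, at 2.32% in Rnmt cKO 3 and at 0.155% to 0.619% in the other 6 animals. Some results that rest on Control 1 are therefore also given without it. The permutation tests and most results at single positions or bins are given with all animals only.

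The first question was where CMC gave stops. The thresholds of the study, applied within each genotype, ask for a mean CMC termination of 3% or more and a mean PSU score, the CMC over the mock termination of an animal, of 3 or more. In the 5′ stretch 1 site was called, in both genotypes, at stop 46, that is nucleotide 45. Over all rRNA positions 1.02% were called in either genotype, and the rest of 28S, 3601 positions, held 39 such sites. Stop 46 was called with every animal left out in turn.

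At stop 46 the CMC termination was 5.30%, 5.58%, 5.96% and 5.49% in Control 1 to 4 and 6.81%, 4.94%, 6.51% and 6.12% in Rnmt cKO 1 to 4. The mock termination was 0.86%, 1.25%, 0.97% and 1.18% in Control and 0.96%, 1.19%, 0.82% and 1.17% in Rnmt cKO. All 8 CMC values lay above all 8 mock values, and the genotypes overlapped in both treatments. These values rested on 418 to 839 read starts in CMC and 53 to 151 in mock. The CMC effect, a description for a site chosen by it, was a log2 change of 2.47 ± 0.11 (SE). Position 47, named after its values were seen, was a stop of the other kind, with a mean termination of 6.63% in mock and 5.46% in CMC.

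**Figure D1:**
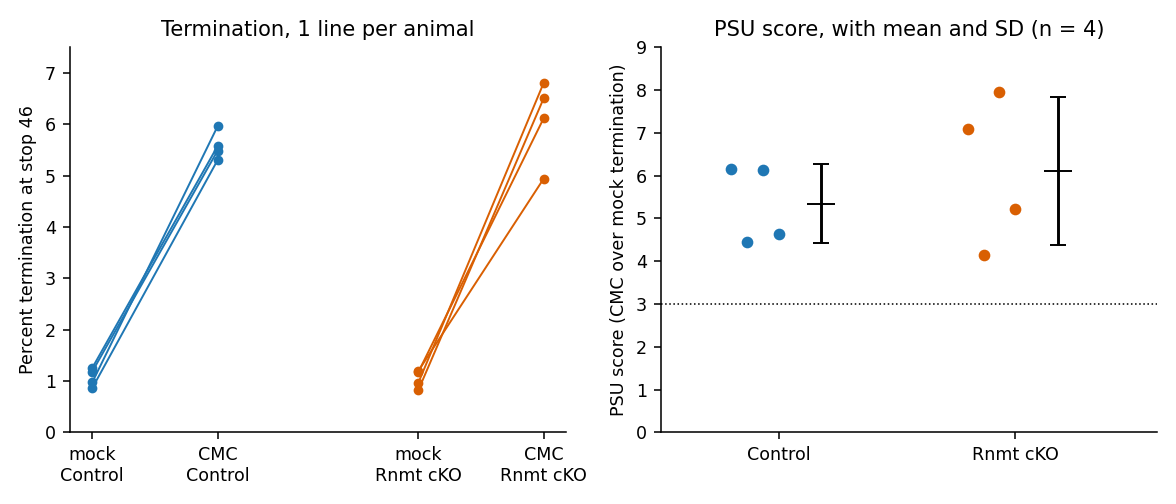
Percent termination at stop 46 in the mock and CMC library of each animal (left, 1 line per animal) and the PSU score of each animal (right, points, with the group mean and SD, n = 4; the dotted line marks the threshold of 3). Every line rises from near 1% in mock to between 4.94% and 6.81% in CMC, and the scores of the genotypes overlap.

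The PSU score at stop 46 was 6.16, 4.45, 6.13 and 4.64 in Control and 7.08, 4.14, 7.95 and 5.23 in Rnmt cKO. Control averaged 5.35 ± 0.93 and Rnmt cKO 6.10 ± 1.73 (SD, n = 4). The spread within Rnmt cKO, from 4.14 to 7.95, took in the whole Control range. Of the 70 sites called in either genotype over all rRNA, 0 (0%) differed in PSU score, and at stop 46 the difference was 0.75 ± 0.88 (SE; limma, unadjusted p = 0.412, adjusted p = 0.797). Read starts at position 1, the 5′ end of the molecule, made up 35.2% to 50.2% of the window here. With a window of 30 nucleotides, which leaves position 1 out, the termination was 16.5% ± 0.57 in CMC and 3.51% ± 0.66 in mock in Control, and 17.5% ± 2.00 and 3.72% ± 0.30 in Rnmt cKO (SD, n = 4). The PSU score was then 4.85 ± 1.12 in Control and 4.76 ± 0.95 in Rnmt cKO, so the direction of the difference turned.

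The position nearest to the thresholds from outside was stop 716. Its CMC termination was 4.70%, 2.67%, 3.11% and 4.42% in Control and 3.62%, 2.75%, 3.56% and 2.72% in Rnmt cKO. Its mock termination was 0.91%, 3.07%, 3.37% and 2.91% in Control and 1.93%, 3.81%, 3.77% and 3.20% in Rnmt cKO. The mean PSU score of 2.12 in Control rested on Control 1, which alone had 5.15; the other 3 Control animals had 0.87, 0.92 and 1.52.

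CMC and mock libraries were next compared at every position where termination averaged 1% or more, with the animal as a block. In the 5′ stretch 646 positions were tested and 82 differed (edgeR, adjusted p under 0.05), or 12.7%, against 21.7% over all rRNA. CMC raised termination at 59 of them, 9.13% of those tested against 11.5% over all rRNA. It lowered termination at 23, 3.56% against 10.2%. The median log2 change over the 646 positions was -0.01, and -0.04 over all 4026. A log2 change above 1 was seen at 1 position of the 5′ stretch, stop 46, and at 51 of 2114 tested positions in the rest of 28S. The other 58 higher positions had log2 changes of 0.22 to 0.78 and a median termination of 1.92% in CMC and 1.40% in mock. They ran from position 9 to 1113, with 10 adjacent pairs among the 59. The count of 82 was 110 without Control 1, with 69 higher and 41 lower, and 58 without Control 4, with 49 higher and 9 lower. Over all rRNA the count of 874 became 1140 without Control 1, with 520 higher and 620 lower. Without Control 4 the count over all rRNA was 660, with 389 higher and 271 lower.

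**Figure D2:**
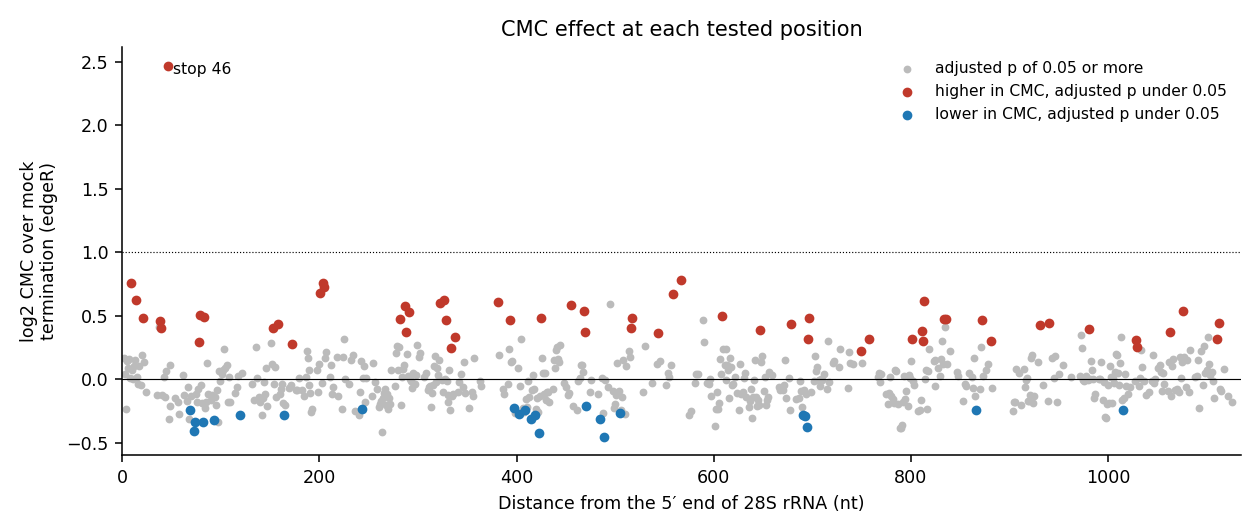
log2 change of termination in CMC against mock (edgeR) at the 646 tested positions, plotted by distance from the 5′ end of 28S rRNA; red and blue points have an adjusted p under 0.05, and the dotted line marks a log2 change of 1. Stop 46 is the single point above the line, and the other 81 called positions lie between -0.45 and 0.78.

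The largest CMC effects that did not reach the thresholds for a site were at stops 567, 204, 9, 205 and 201. At stop 567 the log2 change was 0.78 ± 0.18 (SE; edgeR, adjusted p = 0.00943) and CMC was higher in 8 of 8 animals, but the PSU score of 5.62 in Rnmt cKO 3 rested on 11 mock read starts, while the other 7 animals had 1.29 to 2.08. Stops 204 and 205 are neighbours. At stop 204 the CMC termination was 2.03%, 1.60%, 1.69% and 2.06% in Control and 1.90%, 1.91%, 1.86% and 1.92% in Rnmt cKO. Its mock termination was 1.20%, 1.23%, 0.99% and 1.08% in Control and 0.99%, 1.22%, 1.09% and 1.03% in Rnmt cKO. CMC and mock did not overlap, and the log2 change was 0.76 ± 0.08 (edgeR, adjusted p = 3.08e-05), with 0.73 ± 0.08 at stop 205 (adjusted p = 4.18e-05). Stops 9 and 201 had log2 changes of 0.76 ± 0.10 and 0.68 ± 0.09 (edgeR, adjusted p = 0.000334 and 0.000335) and were higher in CMC in 8 of 8 animals each. The window at stop 9 holds only positions 1 to 9. In the Control 1 CMC library 3529 of its 4790 read starts were at position 1, the 5′ end of the molecule. All 5 stayed under 3% mean CMC termination in each genotype.

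CMC-independent stops were examined in the mock libraries. Mean mock termination reached 10% at 11 positions of the 5′ stretch, or 0.974%, and at 24 of 3601 in the rest of 28S, or 0.666%. One of the 11 was position 2, whose window holds only positions 1 and 2. Of the 11, 8 lay in bins from 601 to 1000. The highest were at positions 693, 866, 710, 616 and 433. The other 6 had 10.2% to 13.9%.

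**Figure D3:**
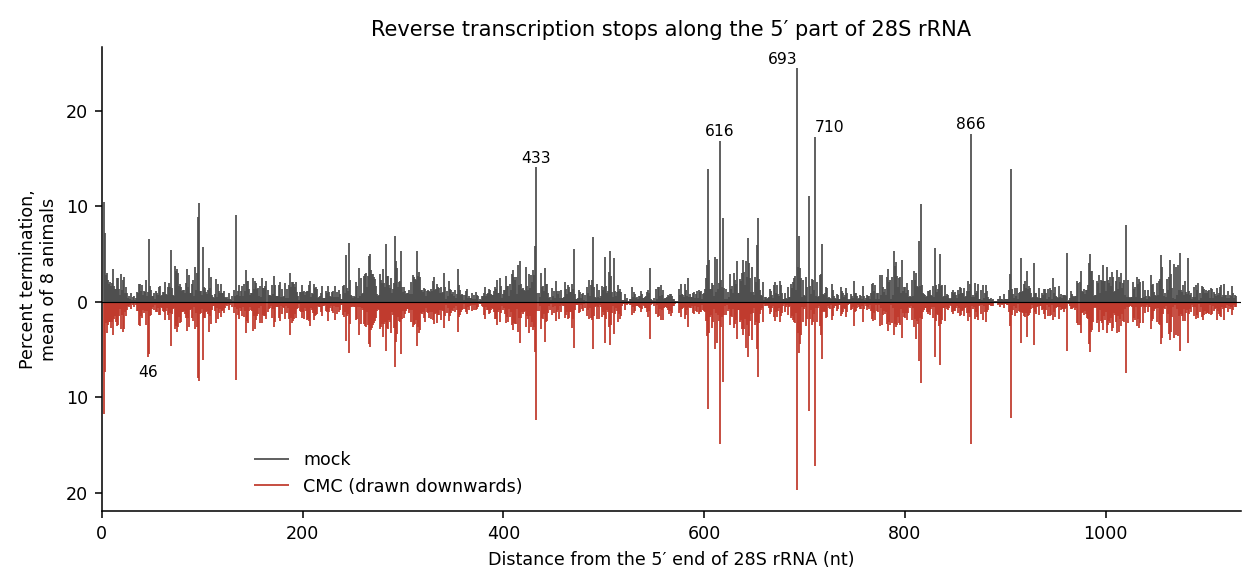
Mean percent termination over 8 animals in mock (grey, upwards) and CMC (red, drawn downwards) at each position after the first of the 5′ part of 28S rRNA. The tallest lines, at 693, 866, 710, 616 and 433, appear in both directions, while stop 46 stands out only downwards.

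At position 693 the mock termination was 17.2%, 24.1%, 20.8% and 22.6% in Control and 22.7%, 24.5%, 37.5% and 26.3% in Rnmt cKO. The CMC termination there was 18.3%, 16.4%, 15.7% and 20.0% in Control and 21.9%, 20.7%, 23.3% and 21.7% in Rnmt cKO. Rnmt cKO 3 was the highest in both treatments, and the genotypes overlapped in mock but not in CMC. Neither difference between genotypes passed the test: the log2 change was 0.39 in mock and 0.32 in CMC (edgeR, adjusted p = 0.653 and 0.176). Termination at 693 was lower in CMC in 7 of 8 animals, by a log2 change of -0.29 ± 0.09 (adjusted p = 0.0472). This call was lost when any single animal other than Control 1 was left out, with adjusted p from 0.0547 to 0.117.

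At position 866 the mock termination was 13.2%, 16.4%, 17.1% and 18.6% in Control and 19.4%, 17.4%, 21.2% and 17.5% in Rnmt cKO. Its CMC termination was lower in 7 of 8 animals, with a log2 change of -0.24 ± 0.07 (adjusted p = 0.0301 by edgeR), and the call was lost without Control 2, 3 or 4 or without Rnmt cKO 2 or 4 (adjusted p of 0.0608 to 0.0884). Control 1 was the animal without a decrease at both positions. At position 710 mock and CMC were level, with means of 17.3% ± 1.27 and 17.2% ± 1.07 (SD, n = 8) and a log2 change of -0.00 ± 0.07 (adjusted p = 0.975). Positions 616 and 433 had means of 16.9% ± 4.09 and 14.1% ± 2.48 in mock and 15.0% ± 1.94 and 12.4% ± 1.64 in CMC, and neither effect of CMC passed the test (adjusted p = 0.408 and 0.233). At 433 the mock termination was 9.47%, 13.7%, 13.3% and 13.5% in Control and 15.3%, 14.4%, 18.4% and 14.6% in Rnmt cKO. The genotypes did not overlap there in mock, but the log2 change of 0.33 did not pass (edgeR, adjusted p = 0.653). They overlapped in mock at 616, 710 and 866.

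The second question was whether stops differed between genotypes. In mock 0 of 631 positions of the 5′ stretch differed (edgeR, 0% of 3985 over all rRNA), with 21 at an unadjusted p under 0.05 against 248 over all rRNA. DESeq2 called 1 here, and 0.251% over all rRNA. With the replicate number as a block, which pairs the mock libraries, 0 differed here and 42 over all rRNA. The unadjusted p of this edgeR fit was under 0.05 at 93 of the 631 positions and at 708 of the 3985. In CMC 0 of 662 differed (0% of 4018 over all rRNA), with 92 at an unadjusted p under 0.05 against 602 over all rRNA. DESeq2 called 13 of the 662, 10 higher and 3 lower in Rnmt cKO, and 123 (3.06%) over all rRNA. For the interaction of genotype and CMC, 0 of 646 positions passed in the 5′ stretch and 0% of 4026 over all rRNA (edgeR). The unadjusted p was under 0.05 at 39 of the 646 and at 244 of the 4026, and DESeq2 called 0 here and 11 (0.273%) over all rRNA.

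Position 489 was among the smallest p-values in 3 of the genotype tests. Its mock termination was 5.04%, 6.03%, 5.46% and 6.42% in Control and 7.80%, 6.88%, 8.69% and 7.72% in Rnmt cKO. Its CMC termination was 3.58%, 4.32%, 4.25% and 4.49% in Control and 5.23%, 5.47%, 6.09% and 6.12% in Rnmt cKO. Every Rnmt cKO value lay above every Control value in both treatments. The log2 change was 0.44 in mock and 0.46 in CMC, and neither passed (edgeR, adjusted p = 0.653 and 0.0776), while DESeq2 called the CMC difference (adjusted p = 0.000459). CMC lowered termination at 489 in 8 of 8 animals, with a log2 change of -0.45 ± 0.06 (adjusted p = 0.000562 by edgeR), and the log2 difference of this effect between genotypes was 0.02 ± 0.13 (SE; interaction, adjusted p = 0.960). The neighbouring position 488 had 1.20%, 1.94%, 1.69% and 1.98% mock termination in Control and 2.08%, 2.73%, 3.57% and 2.69% in Rnmt cKO, again with no overlap, and a log2 change of 0.70 that did not pass (edgeR, adjusted p = 0.653).

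The other positions with the smallest p-values went in both directions. At position 611 the mock termination was 1.94%, 4.38%, 3.03% and 4.10% in Control and 5.15%, 5.77%, 7.76% and 5.68% in Rnmt cKO, a log2 change of 0.85. Position 945 had less mock termination in Rnmt cKO, at a log2 change of -0.49. Neither passed (edgeR, adjusted p = 0.653 for both). At position 158 the CMC termination was 2.42%, 2.43%, 2.69% and 2.47% in Control and 2.09%, 1.88%, 1.75% and 1.67% in Rnmt cKO. The 4 Rnmt cKO values were the lowest, and the log2 change of -0.44 gave an adjusted p of 0.0684 by edgeR and 0.000327 by DESeq2. At position 596 the CMC termination was 1.40%, 1.27%, 1.57% and 1.25% in Control and 0.78%, 0.58%, 0.80% and 0.78% in Rnmt cKO (log2 change -0.88; edgeR, adjusted p = 0.0684). These values came from only 16 to 49 read starts per library. For the interaction the smallest p-values were at positions 950, 10 and 597, with log2 changes of 0.67, 0.52 and -1.08 (edgeR, adjusted p = 0.767, 0.785 and 0.785). The window at position 10 is cut short by the 5′ end of the molecule and takes in the read starts there.

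The third question was whether the amount of read starts rose with genotype. The 5′ stretch took 10.3%, 9.31%, 9.91% and 10.2% of all read starts in Control mock and 10.1%, 9.93%, 10.3% and 10.4% in Rnmt cKO mock. In CMC it took 8.43%, 9.94%, 9.67% and 9.69% in Control and 9.53%, 9.73%, 10.9% and 10.4% in Rnmt cKO. The genotypes overlapped in both (exact permutation test, 2-sided, p = 0.457 in mock and 0.229 in CMC; adjusted p = 0.623 and 0.571 over 15 measures). Its share of 28S read starts in mock was 17.3% ± 0.64 for Control and 17.6% ± 0.47 for Rnmt cKO, and 17.2% ± 0.95 and 17.7% ± 0.71 in CMC (SD, n = 4; exact permutation test, p = 0.457 and 0.514).

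Relative to 18S rRNA, the RNA of the small subunit, the values separated. The ratio of read starts in the 5′ stretch to those in 18S was 0.471, 0.420, 0.420 and 0.437 in Control mock and 0.486, 0.481, 0.518 and 0.483 in Rnmt cKO mock. In CMC it was 0.383, 0.437, 0.419 and 0.428 in Control and 0.469, 0.466, 0.521 and 0.478 in Rnmt cKO. Every Rnmt cKO library lay above every Control library of the same treatment (exact permutation test, 2-sided, p = 0.0286 in each, the smallest that 4 against 4 animals allow; adjusted p = 0.214 over 15 measures). The rest of 28S had a ratio to 18S of 2.09 ± 0.18 in Control and 2.30 ± 0.10 in Rnmt cKO mock, and of 2.01 ± 0.04 and 2.25 ± 0.03 in CMC (SD, n = 4). Its genotypes separated in CMC too, at most 2.04 in Control and at least 2.21 in Rnmt cKO, and overlapped in mock. The overlap in mock came from Control 1, at 2.34. Control 2 to 4 had 2.09, 1.95 and 1.99 in mock, below the lowest Rnmt cKO mock value of 2.19. The separation from 18S was thus not particular to the 5′ stretch. In such bulk RNA, a change in the 18S read starts and one in the 28S read starts cannot be told apart by this ratio, nor fewer cells of a type from less RNA per cell.

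**Figure D4:**
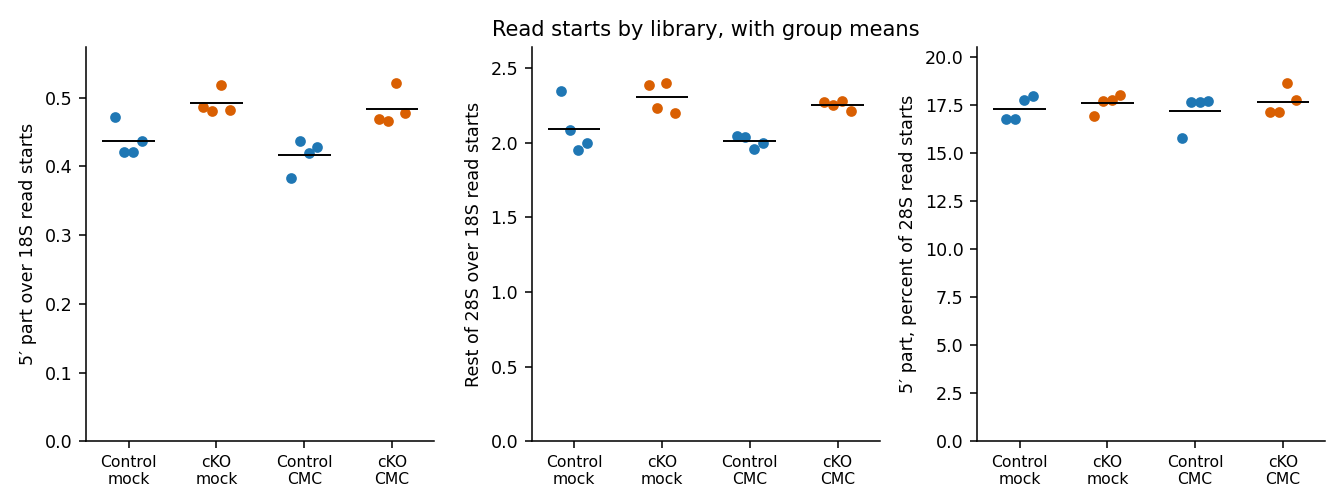
Read starts of the 5′ part of 28S over 18S read starts (left), those of the rest of 28S over 18S (middle) and the 5′ part as a percent of 28S read starts (right), 1 point per library and lines at the group means (n = 4). The Rnmt cKO points lie above the Control points of the same treatment on the left, from 0.481 against at most 0.471 in mock. In the middle they lie above them in CMC, from 2.21 against at most 2.04, and overlap them in mock. On the right the genotypes overlap in both treatments.

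The remaining measures of the whole stretch did not pass either. Median termination in mock was 1.12% ± 0.06 for Control and 1.09% ± 0.03 for Rnmt cKO, and 1.17% ± 0.01 and 1.15% ± 0.02 in CMC (SD, n = 4; exact permutation test, p = 0.429 and 0.143). The 10 positions with the most read starts, position 1 among them, held 10.4% ± 0.86 of the read starts of the stretch in Control and 12.0% ± 1.31 in Rnmt cKO mock (p = 0.0571), and 9.64% ± 0.20 and 10.1% ± 0.69 in CMC (exact permutation test, p = 0.229; adjusted p = 0.286 and 0.571).

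Read starts were then summed in bins of 100 nucleotides. In CMC 1 of 12 bins of the 5′ stretch was higher in Rnmt cKO, the bin 1 to 100, and 0 were lower (edgeR). Over all rRNA 19.4% of 72 bins were called, with 4 of the 72 (5.56%) higher and 10 lower. This bin had 10439, 12286, 12421 and 12361 CPM (read starts scaled to a common library total) in Control and 12375, 12986, 13778 and 13902 in Rnmt cKO. Control 1 was lowest and a single pair of neighbouring values made the groups overlap. The log2 change was 0.14 ± 0.04 (SE; edgeR, adjusted p = 0.0442), and it was 0.10 without Control 1 (adjusted p = 0.0705). The call was lost when any animal but Rnmt cKO 2 was left out, with unscaled library totals (adjusted p = 0.131) and with the replicate block (adjusted p = 0.103). Mock libraries gave -0.05 ± 0.08 for this bin (log2 scale, adjusted p = 0.789 by edgeR). Of the 12 mock bins 0 passed in edgeR, and 0% of the 72 over all rRNA. The unadjusted p was under 0.05 in 2 of the 12 and in 16 of the 72. DESeq2 called 0 of the 12 but 6 of the 72, with 2 higher and 4 lower in Rnmt cKO.

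The bin 601 to 700, which holds the strong stops 616 and 693, had 6031, 7534, 7058 and 7043 CPM in Control CMC and 7388, 7122, 9225 and 8419 in Rnmt cKO CMC. Its log2 change was 0.19 ± 0.07 in CMC and 0.12 ± 0.05 in mock, and neither passed (edgeR, adjusted p = 0.0543 and 0.207). The other small p-values in mock were for the bins 401 to 500 and 901 to 1000, with log2 changes of 0.16 ± 0.06 and 0.14 ± 0.07 (adjusted p = 0.206 and 0.227). The log2 change was above 0 in 11 of 12 bins in CMC and in 8 of 12 in mock, with medians of 0.09 and 0.10. The medians were -0.00 and -0.01 over all 72 bins, 0.02 and 0.01 over the bins of the rest of 28S, and -0.13 and -0.16 over those of 18S.

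**Figure D5:**
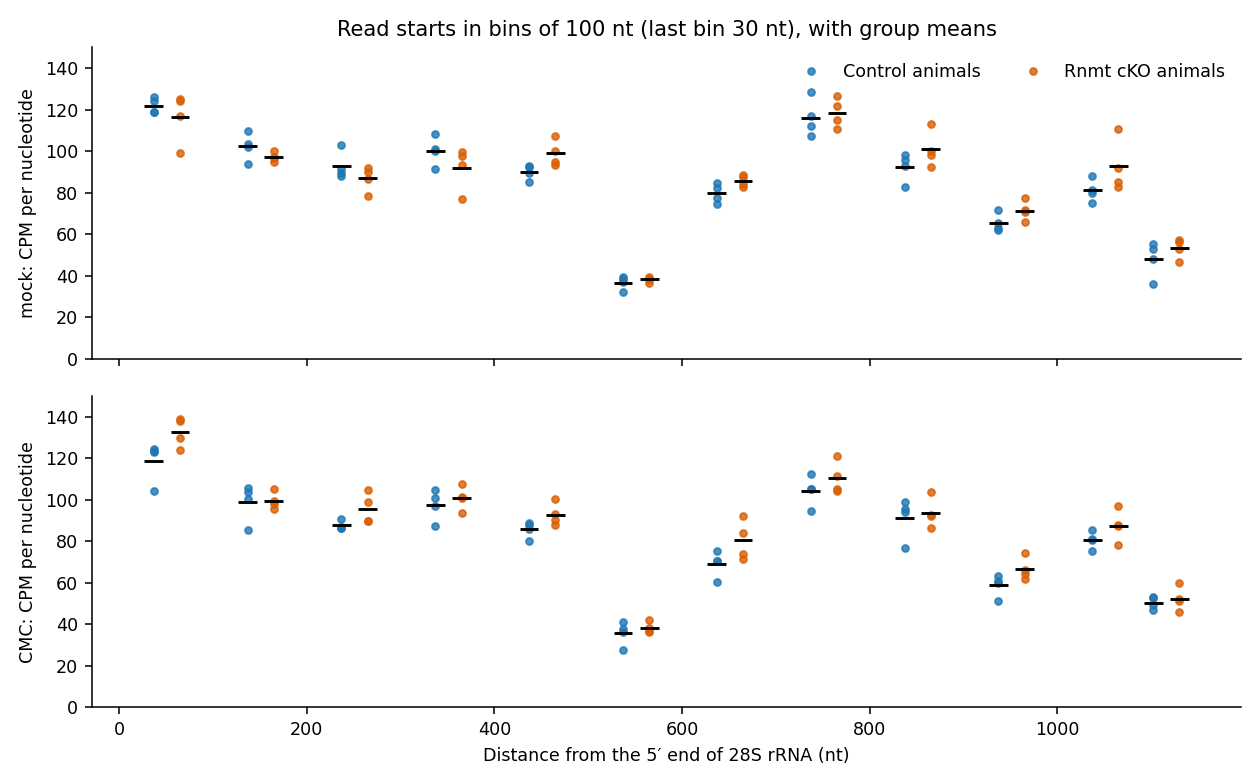
CPM per nucleotide in bins of 100 nucleotides (the last of 30) along the 5′ part of 28S rRNA in mock (top) and CMC (bottom), with 1 point per animal and black lines at the group means (n = 4). The bin 501 to 600 is low in all libraries, and the Control and Rnmt cKO points overlap in every bin except 401 to 500 in mock.

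By single position 0 of 1120 tested positions differed in read starts in mock and 0 in CMC (edgeR, 0% of 6714 and 0% of 6712 over all rRNA), with 84 and 131 at an unadjusted p under 0.05 against 488 and 927 over all rRNA. With the replicate block the mock counts at an unadjusted p under 0.05 were 133 here and 990 over all rRNA. DESeq2 called 4 in mock, all higher in Rnmt cKO, and 36 (0.536%) over all rRNA, of which 29 were higher. In CMC it called 27, 26 of them higher, and 152 (2.26%) over all rRNA, of which 99 were higher. In CMC the smallest p-values were at 962, 452 and 489, with log2 changes of 0.72, 0.45 and 0.57 (edgeR, adjusted p = 0.0953, 0.133 and 0.138). At 962 the CMC libraries held 163, 242, 320 and 300 read starts in Control and 433, 329, 692 and 578 in Rnmt cKO, and the difference passed without Rnmt cKO 2 (edgeR, adjusted p = 0.0298). In mock they were at 611, 489 and 488, with log2 changes of 0.80, 0.66 and 0.89 (edgeR, adjusted p = 0.636 each).

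The read starts were spread unevenly along the stretch. The bin 501 to 600 was the sparsest of the full-length bins, with 3673 ± 319 CPM in Control mock and 3830 ± 125 in Rnmt cKO mock, against 8994 ± 341 and 9895 ± 634 in the bin before it and 7976 ± 462 and 8576 ± 277 in the bin after it (SD, n = 4). In CMC it had 3569 ± 574 in Control and 3842 ± 264 in Rnmt cKO. All 16 libraries had fewer read starts in it than in any other bin of 100 nucleotides. Its median termination, 0.723% in mock, was the lowest of the 12 bins. Positions raised by CMC were found in all 12 bins, 2 to 9 in each, with 9 of 67 tested in the bin 1 to 100 and 2 of 48 in the bin 701 to 800. Of the 23 lowered positions, 8 fell in the bin 401 to 500 and 5 in the bin 1 to 100.

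The 5′ stretch had fewer read starts per nucleotide than the rest of 28S in every animal. In mock it had 158 ± 27.7 against 235 ± 42.4, and in CMC 149 ± 31.7 against 220 ± 36.8 (SD, n = 8 animals). The ratio ran from 0.641 to 0.701 in mock and from 0.596 to 0.729 in CMC (log2 ratio -0.57 in both; exact sign-flip permutation test, 2-sided, p = 0.00781, the smallest that 8 animals allow; adjusted p = 0.00893 over 8 measures). The median log2 ratio of CMC to mock termination over tested positions averaged 0.01 in the stretch and -0.03 in the rest. It was higher in the stretch in 8 of 8 animals, by 0.03 ± 0.01 (SD, exact permutation test, p = 0.00781). Single animals ran from -0.03 to 0.15 in the stretch and from -0.07 to 0.10 in the rest. The edgeR median log2 change over the stretch was -0.01 with all animals and -0.03 without Control 1. The share of tested positions with a CMC over mock termination above 2, a measure chosen after the data had been seen, was lower in the stretch in 8 of 8 animals, at 0.155% to 7.74% against 2.51% to 8.66% (exact permutation test, p = 0.00781; adjusted p = 0.00893). The median termination in mock was 1.11% against 1.15%, lower in 8 of 8 animals (exact permutation test, p = 0.00781), a difference of -0.04 that vanished with a window of 30 nucleotides (0.000301). In CMC it was 1.16% against 1.17% (exact permutation test, p = 0.133).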

How the data were processed

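The stretch is read-start positions 1 to 1130 of 28S rRNA. Per the study's methods, the authors extracted a barcode of 10 nt with umi_tools, trimmed adapters with cutadapt, aligned reads to custom rRNA sequences with bowtie2, removed PCR duplicates by barcode and dropped secondary alignments and those with MAPQ under 20. The submitters' processing notes also name STAR 2.5.2b and deepTools. The deposited files hold raw counts of read starts per nucleotide, counted from 1 here. Read coverage was not in the counts and was replaced by the read starts in the window of 65 nt (75 cycles less the barcode), an upper bound for reads of that length, so termination is a lower bound.

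Termination was fitted in edgeR 4.0.16 (glmQLFit, glmQLFTest) with log window coverage as offset, read starts with TMM library sizes, and PSU scores with limma 3.58.1. Adjustment was by Benjamini-Hochberg with a threshold of 0.05. It ran over all tested rRNA positions or bins for the fits of counts and over the 70 called rRNA sites for PSU scores. For the permutation tests it ran over 15 measures between genotypes and over 8 measures against the rest of 28S. An SE given with an edgeR log2 change is that change over the square root of F. Measures per library were compared by exact permutation tests. Alternatives were DESeq2 1.42.0, windows of 50 and 30 nt, other thresholds and scalings, the replicate block and leaving out each animal. R 4.3.3, Python 3.11.15 and matplotlib 3.10.9 were used, and the tests were tested on simulated data.

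Named positions are the called site, the 5 strongest mock stops, the 5 largest uncalled CMC effects, those past a genotype test or else the 3 with the smallest p, and those nearest the site thresholds. The stretch, lists and tests were chosen with earlier results of these data known. Same-numbered animals of both genotypes deviated together in mock termination over 3985 positions (r = 0.658, 0.424, 0.169 and 0.381 for numbers 1 to 4), most strongly for number 1. In the stretch r was 0.706, 0.364, 0.152 and 0.173. The replicate block treats the numbers as pairs, and whether the animals were paired was not tested. The animals are the replicates. Intervals of single counts were not used, and the spread is that between animals.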

Additional observations from a re-analysis of the deposited data

Results flagged for a closer look

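In groups of 4 animals, 94 sets of values were examined for a sample far from the others, and 9 had one. Chance flags about 1 in 20 groups, or 4.7 of 94.

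Of the 9, 6 were Control 1. Its mock library had a median termination of 1.03%, against 1.15% to 1.16% in the other Control mock libraries, and a termination of 9.47% at position 433, against 13.3% to 13.7%. Its CMC library had 15.8% of its 28S read starts in the 5′ stretch, against 17.6% to 17.7%, a termination of 16.6% at position 710, against 17.96% to 18.13%, one of 11.0% at position 433, against 12.2% in the other 3, and 10439 CPM in the bin 1 to 100, against 12286 to 12421. The CMC library of Control 2 had 9070 CPM in the bin 201 to 300, against 8626 to 8694. The mock library of Rnmt cKO 3, the library with the fewest read starts, had a ratio of the 5′ stretch to 18S of 0.518, against 0.481 to 0.486, and a termination of 19.3% at position 710, against 16.9% to 17.2%.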

How the results depend on the processing

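The site at stop 46 was called under every alternative, and a PSU score of at least 2 added stop 716 (2 sites). The PSU difference at stop 46 turned to -0.10 with a window of 30 nt, an alternative chosen after the data had been seen (limma, adjusted p = 0.929). It was 0.14 to 1.41 with an animal left out. The count of positions with a CMC effect was 142 of 987 with a window of 30 nt and 124 of 1124 with no minimum termination, which tested more positions, and 58 to 110 with an animal left out. Over all rRNA these counts were 1418 of 6075, 1232 of 6755 and 660 to 1140. DESeq2 called 1 position for mock termination, 13 for CMC termination, and 4 and 27 for read starts per position in mock and CMC, against 10, 123, 36 and 152 over all rRNA; the cause was not tested. Leaving out an animal gave 0 to 1 for CMC termination and for CMC read starts per position. Over all rRNA it gave 0 to 25 and 0 to 36. The 1 bin called in CMC became 0 with library totals, 2 with DESeq2, 2 with bins of 50 nt and 0 to 2 with an animal left out. In the same order, the 14 of 72 bins called over all rRNA became 6, 17, 19 of 141 and 0 to 18. With a window of 30 nt the median termination of the stretch less the rest of 28S was 0.000301 in mock and 0.0456 in CMC, and leaving out the last 400 nt of 28S, also chosen later, gave 0.00269 in CMC. The sign of the CMC effect at 710, which did not pass, turned with windows of 50 and 30 nt (0.0087 and 0.031) and without Rnmt cKO 3 or 4 (0.026 and 0.017; -0.029 to 0.026 with an animal left out). Of 722 repeated values 659 kept direction and side of the threshold.

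With the replicate block, the bins called in CMC went from 1 to 0 and the PSU difference at stop 46 stayed at 0.75 (limma, adjusted p = 0.721); no other call in the 5′ stretch changed. For CMC termination the same-numbered animals did not deviate together (r of -0.0905, -0.0115, -0.131 and -0.33 over 4018 positions), and no pairing was assumed there. A comparison of the CMC effect by base was not run, since no sequence of the 5′ part of 28S was used here. Few read starts limit positions such as 567 and 596, with 11 to 122 and 16 to 49 per library.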
